A study of Drosophila melanogaster with 2 samples.

Results

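The cells described here are the 81 cells that the authors' cell table annotates as EC-like and places in their cluster 6, of 4184 cells in the series. They were chosen by those 2 deposited columns, and no measured value was used besides. All 81 came from the library of 1-day old flies, which held 2711 cells, and 0 of the 1473 cells of the 3-day library carried the cluster number. The study sampled epithelial cells of the adult midgut of female Drosophila melanogaster of the Canton S (wild type) strain by droplet single-cell RNA sequencing, with 1 library at each of 2 adult ages (1 and 3 days), and no treatment or altered allele is named in the labels. How many flies each library pooled is not given in the sources used here. The groups set beside cluster 6 were all taken from the day 1 library: the other 299 EC-like cells, 417 ISC2 cells, 970 EB1 cells, 43 apEC cells and 29 mEC cells. Each age had 1 library and clusters are drawn from the expression of the cells themselves, so every difference below is a description of 1 library, with no test.

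The lining of the fly midgut is renewed by intestinal stem cells (ISC), which express the Notch ligand Delta. Their daughters with high Notch signalling become enteroblasts (EB), which carry the transcription factor escargot (esg) as stem cells do and then mature into enterocytes (EC). Enterocytes secrete digestive enzymes, among them large families of trypsin-like and chymotrypsin-like serine peptidases, and they differ by region, here as anterior and posterior (apEC) and middle (mEC) enterocytes. Cells annotated between the progenitor and enterocyte classes are of interest for how digestive genes first appear in cells that still carry progenitor transcripts.

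Cluster 6 made up 2.99% of the day 1 cells (exact Clopper-Pearson 95% interval 2.38 to 3.70) and 21.3% of the 380 EC-like cells of that age. The 0 cells at day 3 allow a share of up to 0.204% there, taken as 3 cells of the total, and age cannot be told apart from library. Intervals cover counting error only. The boundary of the cluster depended on the clustering resolution in the authors' table. At a resolution of 0.5 the 81 cells stood alone. At 0.6 and at 0.8 all 81 shared a cluster with 298 other EC-like cells, and at 0.3 with 291. Those clusters at 0.6, 0.8 and 0.3 held 400, 383 and 778 day 1 cells, and 538, 521 and 1170 cells over both ages. Each thus also held day 1 cells of other classes and cells of day 3. The count of 0 at day 3 is therefore that of the deposited cluster number only. At 1 and at 1.6, clusters of 117 and 131 day 1 cells held 79 and 80 of them, with 37 and 48 other EC-like cells. The deposited label transfer scores set the EC-like cells apart in another way: 80 of the 81 cells were given EC-like as the transferred label, at a median score of 0.845 for that label, against 26 of the 299 other EC-like cells, at a median score of 0.0474. Of those 299 cells, 245 were given ISC2. On the authors' map, 8 of the 81 cells lay more than 2 map units from the cluster's median position.

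The day 1 library held 86114751 unique molecular identifiers (UMIs, each 1 captured transcript), of which 1224314 were in cluster 6. The median depth was 12966 UMIs per cell in cluster 6 (2361 to 63879), 12384 in other EC-like cells, 17672 in ISC2, 34191 in EB1, 28265 in apEC and 48277 in mEC. The median number of genes detected was 1804 in cluster 6 and 1720 in other EC-like cells. Mitochondrial counts took a median of 3.10% in cluster 6 and 3.81% in other EC-like cells, and unspliced UMIs 6.71% and 8.02% in the same order. The deposited doublet neighbour share, which rises with the number of simulated doublets near a cell, had a median of 0.171 in cluster 6, against 0.180 in other EC-like cells, 0.280 in apEC and 0.372 in mEC. All deposited cells of day 1 carried a singlet call. The day 3 classes had no neighbour share among the values used here. Of the cell barcodes, 1 occurred in both libraries, and 0 of those were in cluster 6.

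Cluster 6 cells carried the transcripts of midgut progenitors. To compare detection across depths, each cell was thinned to 4000 UMIs; 74 cluster 6 cells could be so compared. The zinc finger factor esg, the standard marker of stem cells and enteroblasts, was detected in 81.1% of them (95% interval 70.3 to 89.3), against 87.6% of other EC-like cells, 86.3% of ISC2, 89.4% of EB1 and 10.0% of apEC (1.23 to 31.7). Per cell, esg ranged from 0 to 23 UMIs in cluster 6, with a median of 6, and from 0 to 30 in other EC-like cells, with a median of 7, so the groups overlapped over almost their whole range. N, the Notch receptor, was detected in 77.0% of cluster 6 cells (65.8 to 86.0), against 86.9% of other EC-like cells, 84.9% of ISC2, 65.2% of EB1 and 5% of apEC. Without thinning, esg was found in 98.7% and N in 96.0% of the cluster 6 cells. The apEC shares rest on the 20 shallower of 43 cells, since UMI counts could be rebuilt only up to the median depth, and the mEC shares on 8 cells.

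The Notch target E(spl)mbeta-HLH, a repressor of the bHLH family, averaged 12.5 counts per 10000 in cluster 6, against 13.3 in other EC-like cells, 10.2 in ISC2, 10.9 in EB1 and 0.906 in apEC. A level of this kind is the mean over cells of the deposited depth-corrected count, scaled to 10000 per cell. E(spl)malpha-BFM, a Notch target of the Bearded family, averaged 7.53 in cluster 6, against 10.4, 7.91, 5.37 and 0.507 in other EC-like, ISC2, EB1 and apEC cells. Headcase (hdc), a gene expressed in midgut progenitors, averaged 15.1 in cluster 6 and 18.1 in other EC-like cells. At least 3 of the 4 genes esg, N, hdc and E(spl)mbeta-HLH were detected in 95.9% of cluster 6 cells at 4000 UMIs (88.6 to 99.2), against 97.2% of other EC-like cells, 96.4% of ISC2, 93.5% of EB1 and 5% of apEC, and in 0 of 8 mEC cells, which allows a share of up to 37.5%. By these markers cluster 6 stood with the progenitor classes, and its EC-like label is kept here as the authors' name.

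Delta (Dl), the ligand that marks stem cells, separated the progenitor classes from each other. It averaged 1.15 per 10000 in cluster 6, against 1.78 in other EC-like cells, 2.76 in ISC2 and 0.0522 in EB1. It was detected in 28.4% of cluster 6 cells at 4000 UMIs (18.5 to 40.1), against 45%, 52.8% and 0.932% in the other EC-like, ISC2 and EB1 cells. Klumpfuss (klu), a zinc finger factor of enteroblasts, averaged 1.47 in cluster 6, 1.35 in other EC-like cells, 1.29 in ISC2 and 2.78 in EB1. Cluster 6 was thus between ISC2 and EB1 for Dl, and beside ISC2 rather than EB1 for klu. Of the 14 progenitor markers in the table, 12 were measured against other EC-like cells, with a median log2 difference of -0.18 and 0 past 2-fold in either direction. Listed genes were measured where the mean reached 0.1 per 10000 in either group. Over all 3928 genes that reached it the median was 0.08, with 1.32% at least 2-fold higher and 0.102% at least 2-fold lower in cluster 6.

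**Figure D1:**
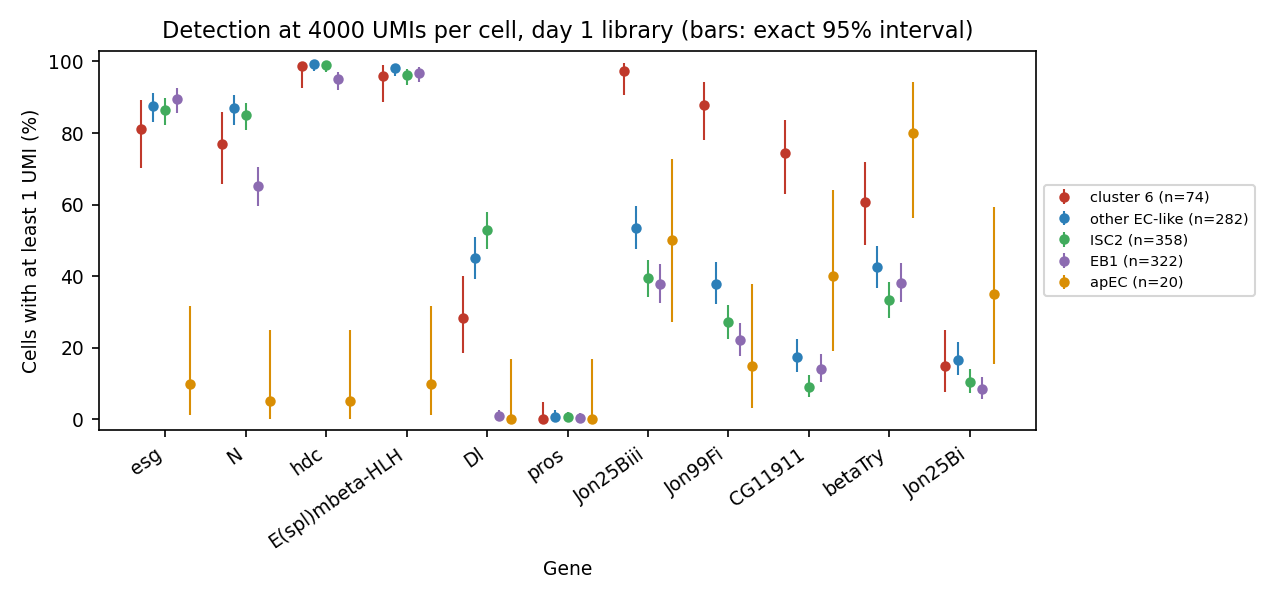
Percent of cells (vertical axis) with at least 1 UMI of each gene (horizontal axis) after thinning to 4000 UMIs per cell, in 5 classes of the day 1 library; points are shares and bars exact 95% intervals. The progenitor genes esg, N, hdc and E(spl)mbeta-HLH are detected in cluster 6 within 10 percentage points of their share in other EC-like cells, whereas Jon25Biii, Jon99Fi and CG11911 are detected in 97.3%, 87.8% and 74.3% of cluster 6 cells and in 53.5%, 37.9% and 17.4% of other EC-like cells.

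What set cluster 6 apart from the other EC-like cells was a short list of genes, nearly all on the side of higher levels. Of 1637 genes that reached a mean level of 0.5 per 10000 and a value above 0 in 10% of cells in either group, 31 were at least 2-fold higher in cluster 6, which is 1.89% of the genes tested, and 1 was at least 2-fold lower (0.0611%). In the log2 differences, 0.1 per 10000 was added to each mean, so that differences of low genes come out too small. Of the 31, only Jon25Biii, betaTry, Jon99Fi, alphaTry, Jon99Fii, Jon99Cii, CG10472 and Jon65Aiii averaged at least 0.5 per 10000 in other EC-like cells. The others passed the filter only through cluster 6, where they are high. The 31 genes held 11 of the listed serine peptidases and 2 amylases. In 28 of the 31 the mean in apEC was higher still than in cluster 6, and in 6 the mean in mEC was. Over all genes tested, 28.3% were at least 2-fold lower in cluster 6 than in apEC and 21.6% than in mEC. The median log2 difference over those genes was 0.29 against apEC and 0.64 against mEC. The share of all genes lower by any amount was not computed for these classes. These comparisons share the cluster 6 cells, so their values stand side by side here and are no separate evidence.

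The largest log2 difference was 2.67 for CG11911, a predicted serine peptidase, with 3.37 per 10000 in cluster 6 and 0.446 in other EC-like cells. Among the cluster 6 cells with rebuilt UMI counts CG11911 ranged from 0 to 43 UMIs with a median of 4, against 0 to 9 with a median of 0 in other EC-like cells, and it had 0.287 per 10000 in ISC2, 0.317 in EB1 and 29.0 in apEC. CG17571 and CG10472, which are predicted serine peptidases outside the fixed list, had log2 differences of 2.54 and 2.18. CG10472 averaged 4.07 per 10000 in cluster 6, 0.822 in other EC-like cells and 119 in apEC. Ag5r2, of the antigen 5-related family of secreted proteins, averaged 2.12 in cluster 6 and 0.296 in other EC-like cells, a log2 difference of 2.48. CG17633, a predicted carboxypeptidase, averaged 1.79 in cluster 6 and 0.280 in other EC-like cells, and CG34026 averaged 0.594 in cluster 6 and 0.0395 in other EC-like cells, with log2 differences of 2.31 for both.

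The other named genes included 4 Jonah peptidases, chymotrypsin-like enzymes of the gut. Jon99Fi averaged 5.68 per 10000 in cluster 6 and 1.00 in other EC-like cells (log2 difference 2.39), and Jon25Biii averaged 9.06 in cluster 6 and 1.93 in other EC-like cells (2.18). Per cell, Jon25Biii ranged from 1 to 206 UMIs in cluster 6 with a median of 12, against 0 to 14 with a median of 2 in other EC-like cells; each of the 75 cluster 6 cells with rebuilt counts held at least 1 UMI. Jon99Fii and Jon65Aii had log2 differences of 2.23 and 2.07. Jon99Fi and Jon99Fii are close copies on chromosome arm 3R (30488963 to 30489895, plus strand, and 30487016 to 30487928, minus strand; build BDGP6), 1034 bases apart, and reads could have been divided between them, so the split between them is uncertain.

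The remaining pair of named genes rested on 1 cell. CG5767 had a log2 difference of 2.58, but 86.8% of its summed level in cluster 6 was in 1 cell at 122 per 10000, and the difference was 0.16 without the highest cell of each group. CG13323 had 63.5% of its level in the same cell, and its difference of 2.04 was 0.85 without the highest cell. Both are at high level in mEC, with 693 per 10000 for CG5767 and 196 for CG13323. That cell held 27806 UMIs, an esg level of 6.79 per 10000 and the lowest peptidase level of the cluster, 18.2 per 10000, and it was among the 8 cells far from the cluster on the map. Without the highest cell of each group, 26 of the 31 genes were still at least 2-fold higher.

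**Figure D2:**
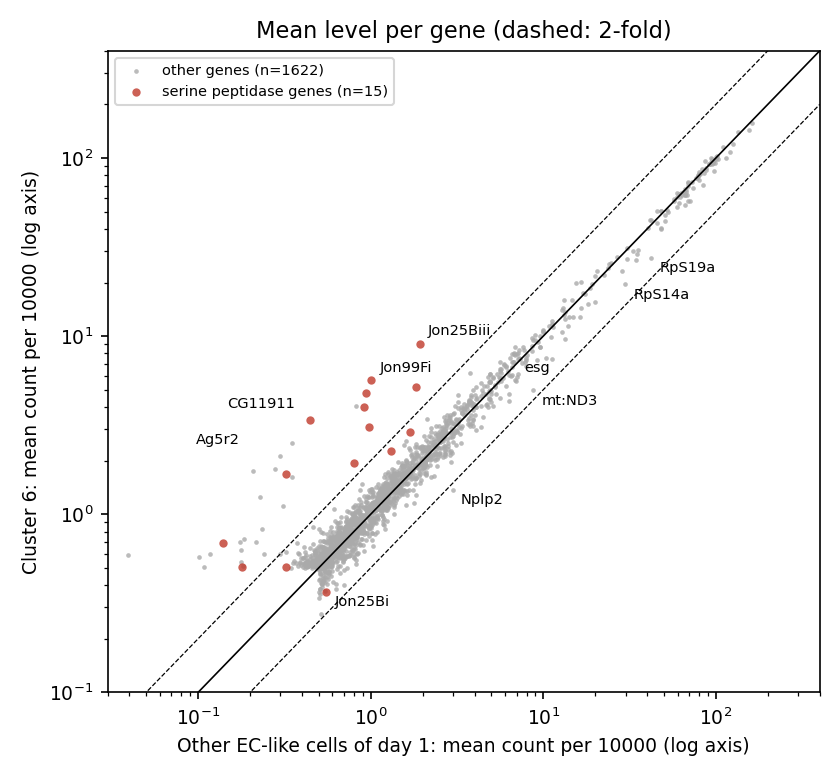
Mean count per 10000 of each of the 1637 genes tested, in cluster 6 (vertical axis) against the other EC-like cells of day 1 (horizontal axis), both on log axes; red points are listed serine peptidases, the solid line marks equal levels and the dashed lines 2-fold. Most genes lie along the line of equality, 31 lie above the upper dashed line, and the labelled Jon25Bi lies just below the line of equality.

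The digestive transcripts were present in nearly the whole cluster and not in a few cells. The summed level of the 30 listed serine peptidases in the table had a median of 38.6 per 10000 per cell in cluster 6, and ranged from 18.2 to 213. In other EC-like cells the median was 11.1, with a range of 0.650 to 224, in ISC2 6.70 and in EB1 5.17. In apEC the median was 1629, with a range of 4.32 to 5585, and in mEC 26.4. The lowest cluster 6 cell was thus above the upper quartile of other EC-like cells, 16.6, while the cluster's highest cell was far under the apEC median. A cut was set at the level that 90% of cluster 6 cells reached or passed, so the 73 of 81 there follow from its choice. At or above it were 26 of 299 other EC-like cells (8.70%), 1 of 417 ISC2 cells and 28 of 970 EB1 cells. So were 37 of 43 apEC cells and 15 of 29 mEC cells.

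Enteroendocrine cells, which secrete hormones and are not known as a source of these enzymes, are set beside them from the same library. Their medians were 13.5 per 10000 in the AstC+EE class and 16.5 in the Tk+EE class, at median depths of 10595.5 and 7758.5 UMIs. The cut was reached by 5 of 36 AstC+EE cells (13.9%) and 5 of 24 Tk+EE cells (20.8%), against 8.70% of other EC-like cells. In rebuilt UMIs, the listed serine peptidases summed to a mean of 72.9 per cluster 6 cell, against 19.0 per other EC-like cell. The mean was 14.4 in ISC2, 18.4 in ISC1, 21.7 in EB1, 20.96 in EB2 and 20.4 in EB3. It was 19.4 in AstC+EE and 18.7 in Tk+EE. These means cover only cells with rebuilt counts. In EB1 that was 322 of 970 cells, in ISC1 294 of 534, in EB3 37 of 74 and in EB2 24 of 204. In rebuilt cells the median was 59 UMIs in cluster 6, 14.5 in other EC-like cells, 12 in ISC2 and 17 in EB1. Below cluster 6, the order of the medians per 10000, taken over all cells, was thus not kept in these medians of UMIs. The part of depth in that order was not tested. At 4000 UMIs, Jon25Biii was detected in 97.3% of cluster 6 cells (90.6 to 99.7), 53.5% of other EC-like cells, 39.4% of ISC2 and 63.3% of 30 AstC+EE cells (43.9 to 80.1). CG11911 was detected in 74.3% of cluster 6 cells (62.8 to 83.8), 17.4% of other EC-like cells and 30.0% of AstC+EE cells (14.7 to 49.4). The Jon25Biii share in other EC-like cells was thus no higher than in enteroendocrine cells, and the cluster 6 shares were above both. Progenitor markers and Jon25Biii occurred together, at least 3 of the 4 markers with at least 1 Jon25Biii UMI, in 93.2% of cluster 6 cells (84.9 to 97.8), against 51.8% of other EC-like cells, 38.3% of ISC2 and 36.3% of EB1.

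The day 3 library had no cluster 6 and lower peptidase levels in its EC-like class. Its 134 EC-like cells had a median peptidase level of 2.92 per 10000, and 6 of them (4.48%) reached the level that 90% of cluster 6 cells passed. The median was 2.09 in ISC2 and 1.39 in EB1 at day 3, which were also lower than those of the same classes at day 1, while apEC at day 3 had a median of 2785. Of the 31 genes higher in cluster 6, 28 had a lower mean in the EC-like cells of day 3 than in the other EC-like cells of day 1. The same share over all genes was not computed, so this count cannot be read as particular to the 31. In these values age cannot be told apart from the library.

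**Figure D3:**
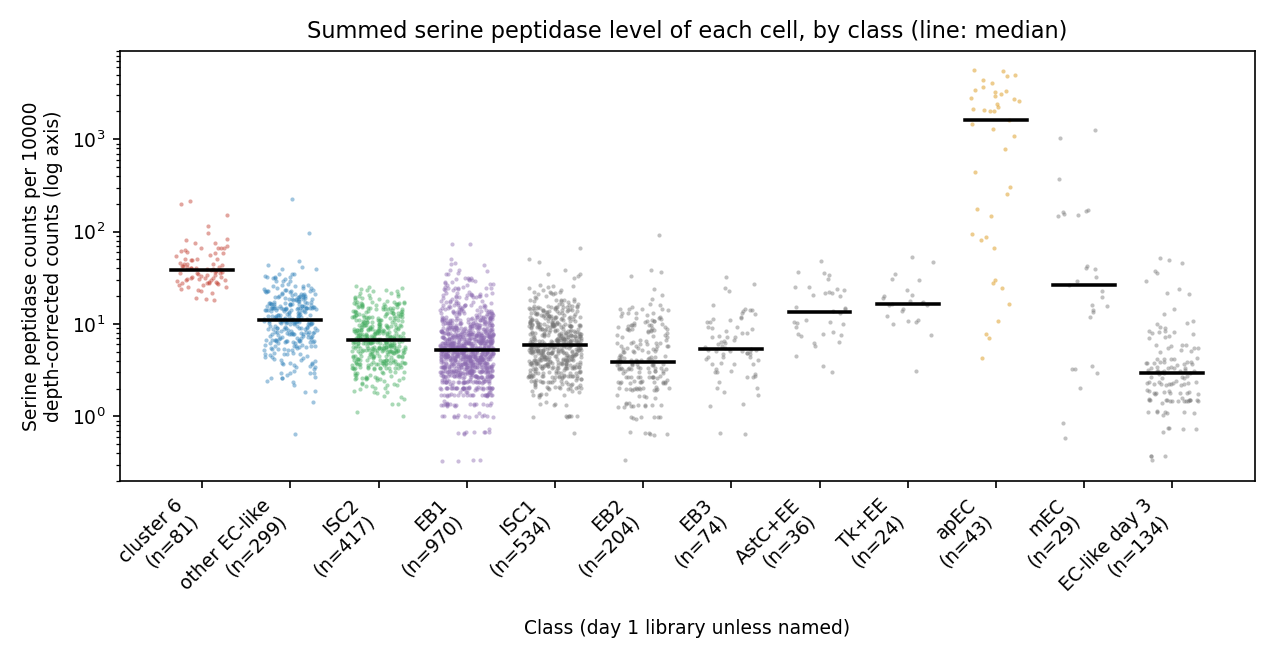
Summed serine peptidase level of each cell (vertical axis, counts per 10000 depth-corrected counts, log axis) in cluster 6, the other classes of day 1 and the EC-like class of day 3; each point is a cell and each line a class median. Cluster 6 forms a band around its median of 38.6, above the median of 11.1 in other EC-like cells and below the median of 1629 in apEC.

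The peptidases were not raised in common proportion. Of the 22 listed serine peptidases with at least 20 UMIs in the 2 groups together, 12 had at least 5-fold more UMIs per cell in cluster 6 than in other EC-like cells, 6 had 2- to 5-fold more and 4 under 2-fold. The median ratio was 5.09. No share over all genes was computed for such ratios. In depth-corrected levels, 15 of 22 measured list members were at least 2-fold higher and 0 lower, beside 1.32% and 0.102% of all genes. The median log2 difference of the list was 1.33. Among the 12, lambdaTry, CG11912, thetaTry, Jon99Ciii and kappaTry had 11 to 19 UMIs in other EC-like cells. They passed the filter only through cluster 6. At the top, lambdaTry had a ratio of 12.5 (6.45 to 26.2) on 40 UMIs in cluster 6, CG11912 of 8.91 and CG11911 of 7.91 (6.65 to 9.42). The trypsins of the betaTry locus were lower in this order, with ratios of 2.85 (2.53 to 3.21) for betaTry and 2.53 for alphaTry, which are close copies whose split is uncertain. In contrast to most of the list, Jon65Aiv had a ratio of 1.71, epsilonTry of 1.47 and Jon25Bii of 0.989 (0.573 to 1.64), and Jon25Bi had a ratio of 0.614 (0.426 to 0.863), with 39 UMIs in cluster 6 and 239 in other EC-like cells. Of those 239, 69 were in 1 cell.

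The pair Jon25Biii and Jon25Bi shows how the makeup of the peptidase transcripts differed. Both are protein-coding genes of the same Jonah cluster on the minus strand of chromosome arm 2L, Jon25Biii at 4949941 to 4950767 and Jon25Bi at 4954279 to 4955144 (build BDGP6), 3511 bases apart. The pair was chosen with the folds above known, and its ratio between classes restates their quotient. Cluster 6 held 28.2 Jon25Biii UMIs for each Jon25Bi UMI (95% interval 20.5 to 39.8). The ratio was 3.13 in other EC-like cells (2.70 to 3.63), 4.86 in ISC2, 4.93 in EB1, 6.56 in ISC1, 4.30 in AstC+EE and 3.39 in the 21 shallower apEC cells (2.95 to 3.91). Over all 43 apEC cells the ratio of the mean levels was 0.945, against 24.7 in cluster 6 and 3.50 in other EC-like cells on the same scale, so the apEC ratio depended on which cells were counted. In mEC it was 11 (3.45 to 56.1), on 3 Jon25Bi UMIs. At 4000 UMIs Jon25Bi was found in 14.9% of cluster 6 cells (7.66 to 25), against 16.7% of other EC-like cells and 16.7% of AstC+EE cells (5.64 to 34.7), a share at the level of the enteroendocrine cells.

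The other 4 pairs computed were chosen in the same way, and their ratios likewise restate quotients of the folds. CG11911 and betaTry had a ratio of 0.823 in cluster 6 (0.721 to 0.940), against 0.297 in other EC-like cells, 0.313 in ISC2, 0.324 in EB1 and 0.0592 in apEC. Jon99Cii and epsilonTry had a ratio of 8.63 in cluster 6 (6.53 to 11.6), against 2.46 in other EC-like cells, 2.99 in ISC2 and 1.26 in apEC. Among peptidases of more similar fold, the ratio of Jon25Biii over Jon99Fi was 1.57 in cluster 6 (1.42 to 1.72) and 1.84 in other EC-like cells (1.63 to 2.08), with 1.81 in ISC2, 1.83 in EB1 and 2.31 in apEC. That of Jon25Biii over CG11911 was 2.68 in cluster 6 (2.39 to 3.01), against 3.83 in other EC-like cells (3.27 to 4.51), 4.07 in ISC2, 3.43 in EB1 and 0.863 in apEC. These apEC ratios come from the 21 shallower apEC cells. Jon66Ci, another Jonah peptidase, averaged 0.694 per 10000 in cluster 6, 0.139 in other EC-like cells and 0.479 in apEC, and was 1 of the 3 genes among the 31 whose mean in apEC was not above that in cluster 6.

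**Figure D4:**
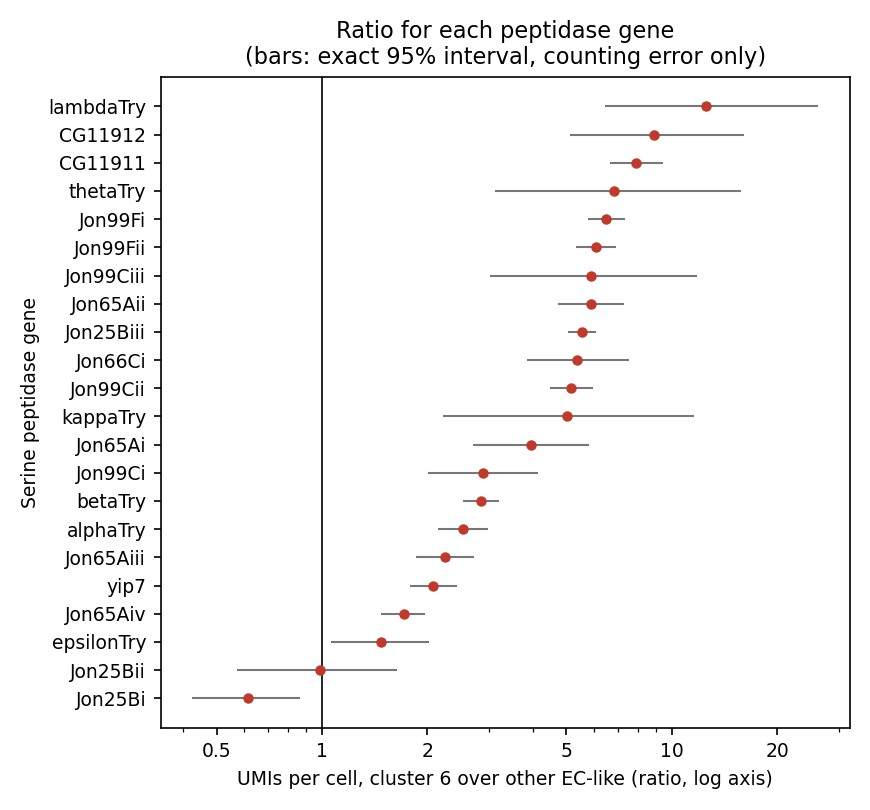
UMIs per cell in cluster 6 over UMIs per cell in other EC-like cells (horizontal axis, log axis) for 22 serine peptidases. These had at least 20 UMIs in cluster 6 and other EC-like cells together. Points are ratios and bars exact 95% intervals that cover counting error only. The ratios spread from 12.5 for lambdaTry to 0.614 for Jon25Bi.

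Enzymes of carbohydrate digestion were also higher in cluster 6, at low levels. The amylases, which cut starch, had 6.19-fold (Amy-d, 4.27 to 9.05) and 3.84-fold (Amy-p, 2.87 to 5.12) more UMIs per cell than in other EC-like cells, with 79 and 100 UMIs in cluster 6; they are close copies, and the split between them is uncertain. The glucosidase tobi had a ratio of 6.77 (2.96 to 16.4), on 18 UMIs in cluster 6 and 10 in other EC-like cells. The maltases Mal-A1 and Mal-A6 had ratios of 4.35 and 1.46. Of 5 measured carbohydrases, 3 were at least 2-fold higher and 0 lower, beside 1.32% and 0.102% of all genes at the same filter, with a median log2 difference of 1.02. Against apEC, 16 of 16 measured carbohydrases were at least 2-fold lower in cluster 6, beside 23.4% of all genes.

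Among 14 measured genes of lipid digestion, storage and synthesis, 3 were at least 2-fold higher and 0 lower, where 1.32% and 0.102% of all genes were. The lipase magro (mag) averaged 0.377 per 10000 in cluster 6, 0.0662 in other EC-like cells and 7.37 in apEC, with 47 UMIs in cluster 6. The sterol-binding protein Npc2e averaged 0.364 in cluster 6, 0.0921 in other EC-like cells and 27.7 in apEC. The predicted lipase CG6295 averaged 0.697 in cluster 6 and 0.217 in other EC-like cells. Without the highest cell of each group the log2 difference of CG6295 was 0.98, which is under 2-fold. As mag and Npc2e were under 0.1 per 10000 in other EC-like cells, they were measured only through cluster 6. The median over the 14 genes was 0.32 on the log2 scale, against 0.08 over all genes.

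Of 10 measured immune genes, 2 were at least 2-fold higher, beside 1.32% of all genes, and 1 of those rested on a single cell. PGRP-SC2, an amidase that degrades bacterial cell wall fragments in the gut, averaged 0.728 per 10000 in cluster 6, 0.185 in other EC-like cells and 18.6 in apEC, and was detected at 4000 UMIs in 24.3% of cluster 6 cells, 8.87% of other EC-like cells and 45% of apEC cells. The antimicrobial peptide gene AttD was that gene: 1 cell held 100% of its cluster 6 level.

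The genes that specify or build enterocytes moved less than their enzymes. Of 10 measured enterocyte factors, 1 was at least 2-fold higher and 0 lower, with a median log2 difference of -0.03, again beside 1.32% and 0.102% of all genes and a median of 0.08. That gene was Ssk, a membrane protein of the smooth septate junction, with 0.420 per 10000 in cluster 6 and 0.119 in other EC-like cells, but 14 of its 22 UMIs in cluster 6 were in 1 cell, and at 4000 UMIs it was detected in 4.05% of cluster 6 cells, 4.61% of other EC-like cells and 65.0% of apEC cells. The brush border myosin gene Myo31DF averaged 1.34 in cluster 6, 1.26 in other EC-like cells and 1.49 in ISC2. The enterocyte transcription factor nub had 0 UMIs in the 75 rebuilt cluster 6 cells and 3 in other EC-like cells; it was detected in 20% of apEC cells at 4000 UMIs. The regulators GATAe and Hnf4 had log2 differences of 0.03 and -0.09.

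Few transcripts were lower in cluster 6, and among the 1637 genes tested the only gene past 2-fold was Nplp2, a neuropeptide-like precursor, with 1.37 per 10000 in cluster 6 and 2.98 in other EC-like cells. It was concentrated in few cells of both groups: 49.2% of its cluster 6 level was in 1 cell, and the highest other EC-like cell had 349 UMIs. At 4000 UMIs it was detected in 16.2% of cluster 6 cells and 13.8% of other EC-like cells. Below 2-fold, the lower genes named by the rule included mt:ND3, a mitochondrially encoded subunit of complex I, with 4.97 in cluster 6 and 8.74 in other EC-like cells, and Kr-h1, a juvenile hormone response factor, with 0.276 and 0.519 in the same order. The other named genes were m-cup, RpS19a, mbc, RpS14a, RpS14b, Dl, mt:ATPase8, Rbfox1 and sty, with log2 differences of -0.68 to -0.55. The receptor gene gce, which binds juvenile hormone, was under the filter on means of 0.5; at 0.0992 per 10000 in cluster 6 and 0.327 in other EC-like cells, it was past 2-fold with a log2 difference of -1.10. Of the 3928 genes at a mean of at least 0.1, 4 were at least 2-fold lower.

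Mitochondrially encoded and nuclear-encoded respiratory genes lay on opposite sides of the median over all genes. All 11 mitochondrially encoded transcripts were lower in cluster 6 than in other EC-like cells, by a median log2 difference of -0.35, where 37.9% of all 3928 genes were lower by any amount, and their summed level averaged 316 per 10000 in cluster 6 and 376 in other EC-like cells. Of 66 nuclear-encoded subunits of oxidative phosphorylation, 61 were higher, by a median of 0.17, and 0 were past 2-fold in either direction; of all genes 62.1% were higher by any amount. Of 30 proteasome subunits 27 were higher, by a median of 0.23. Against ISC2, the median of the mitochondrially encoded transcripts was 0.21, so the lower level was relative to the other EC-like cells. The unspliced share and mitochondrial percentage also differed between these groups, as given above, and their part in these differences was not tested.

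Most ribosomal protein transcripts differed little, and RpS19a, RpS14a and RpS14b were the lowest of them in cluster 6. Over 82 cytosolic ribosomal protein genes the median log2 difference from other EC-like cells was -0.02, with 0 past 2-fold. The differences were -0.62 for RpS19a, -0.60 for RpS14a and -0.58 for RpS14b, and the next lowest was RpL36 at -0.30. RpS19a, a protein of the small subunit, averaged 27.5 per 10000 in cluster 6 with quartiles of 20.5 and 32.1, against 42.3 in other EC-like cells with quartiles of 30.1 and 55.5, 46.2 in ISC2 and 44.3 in EB1. In apEC it averaged 14 and in mEC 12.1. RpS14a averaged 19.6 in cluster 6 and 29.8 in other EC-like cells; it and RpS14b are near-identical copies whose split is uncertain, and both were lower. RpS13 averaged 57.4 in cluster 6 and 68.8 in other EC-like cells, while RpL32 averaged 92.5 and 95.2 in the same order.

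Across cells of the progenitor classes, the levels of RpS19a and of several other ribosomal protein genes were lower where the peptidase level was higher. Spearman's rho between RpS19a and the peptidase level was -0.53 over the 299 other EC-like cells, -0.58 over 417 ISC2 cells and -0.52 over 970 EB1 cells of day 1, but 0.15 within the 81 cells of cluster 6. Over the 82 ribosomal protein genes, rho in other EC-like cells had a median of -0.03 and a range of -0.53 to 0.23, with 9 genes at or below -0.3. After RpS19a the lowest were RpS14a (-0.45), RpL24 (-0.45), RpS13 (-0.38) and RpS14b (-0.34), while RpL32 was at -0.00. In ISC2 the median was 0.09 with 8 genes at or below -0.3, and in EB1 it was -0.01 with 15. At day 3 rho was -0.18 for RpS19a in EC-like cells and -0.19 in ISC2. These are descriptions over cells of 1 library that share its depth: the peptidase level had a rho of -0.42 with the depth of other EC-like cells, -0.41 in ISC2 and -0.53 in EB1, and the part of depth was not tested.

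**Figure D5:**
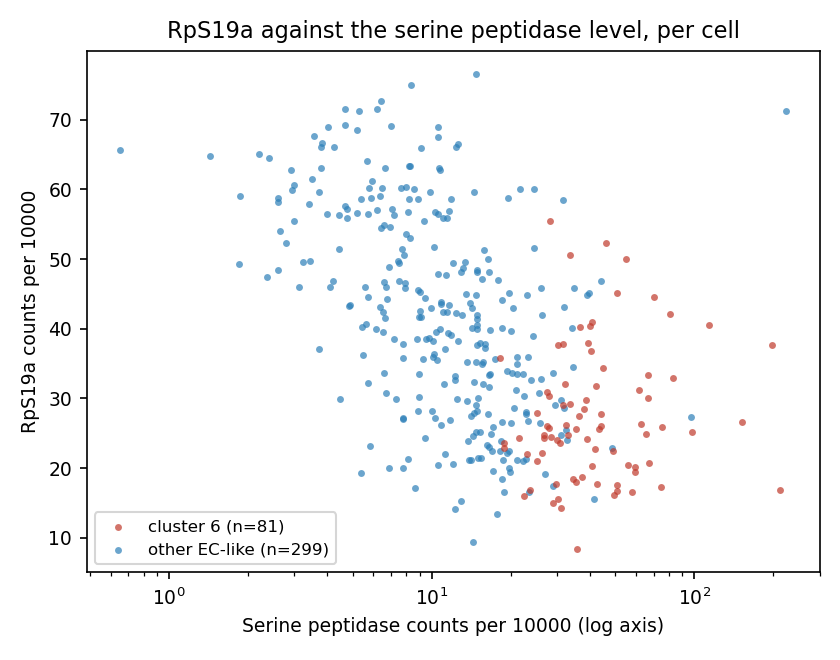
RpS19a level (vertical axis, counts per 10000) of each cell against its summed serine peptidase level (horizontal axis, counts per 10000, log axis) in cluster 6 and the other EC-like cells of day 1. Cluster 6 cells sit at the right with a mean of 27.5 for RpS19a, and other EC-like cells with more peptidase transcripts have lower RpS19a levels.

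Set beside the stem cell class ISC2, cluster 6 differed in much the same set. Of 1635 genes, 36 (2.2%) were at least 2-fold higher and 3 (0.183%) at least 2-fold lower. The 5 genes with the largest log2 difference were CG11911 (3.16), CG17571 (3.09), Ag5r2 (2.98), Jon99Fi (2.95) and CG10472 (2.91). The 3 lower genes were Cpr51A, a cuticle protein gene, with 0.595 per 10000 in cluster 6 and 1.90 in ISC2; Dl, with 1.15 in cluster 6 and 2.76 in ISC2; and jumu, a forkhead transcription factor, with 0.206 in cluster 6 and 0.565 in ISC2. Cpr51A was at the same time among the 31 genes above the other EC-like cells, which averaged 0.240. Of the 22 serine peptidases measured against ISC2, 18 were at least 2-fold higher and 0 lower, beside 1.73% and 0.297% of all genes at a mean of at least 0.1.

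Against the enteroblast class EB1 there were differences in both directions. Of 1682 genes, 67 (3.98%) were at least 2-fold higher in cluster 6 and 38 (2.26%) at least 2-fold lower. Besides peptidases, the higher side was led by Dl, with a log2 difference of 3.04. On the lower side CG17145 had a log2 difference of -2.97, unc-104 of -2.76, stl of -2.55, CG11155 of -2.19 and CG30090 of -2.18. The kinesin gene unc-104 averaged 0.499 per 10000 in cluster 6 and 3.95 in EB1, and stl, which encodes a secreted metalloprotease of the ADAMTS family, 0.122 and 1.2 in the same order. For both genes cluster 6 was close to the other EC-like cells, at 0.524 for unc-104 and 0.0780 for stl. EB1 cells were deeper, and within the depth range of cluster 6 the 5 lower genes kept log2 differences of -1.99 to -3.06. In that range the higher peptidases came out smaller, with Jon99Fi at 2.65 instead of 3.06, CG11911 at 2.73 instead of 3.06 and Jon25Biii at 2.53 instead of 3.02. Ag5r2 was at 2.68 instead of 2.92, while Dl was at 3.24.

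The enterocyte classes were far from cluster 6. Against apEC, 669 of 2117 genes (31.6%) were at least 2-fold higher in cluster 6 and 600 (28.3%) at least 2-fold lower. The highest were hdc, with 15.1 per 10000 in cluster 6 and 0.923 in apEC, E(spl)malpha-BFM, E(spl)mbeta-HLH, Tet, the DNA and RNA oxidase gene, and N. The lowest were CG12374, a predicted carboxypeptidase, with 0.547 in cluster 6 and 114 in apEC (log2 difference -7.46), CG7542, epsilonTry, Jon25Bi and CG6409, at -7.35 to -7.03. These values depended on which apEC cells were counted. With rebuilt UMI counts, which cover the 21 shallower apEC cells, the log2 difference was -6.19 for CG12374, -5.93 for epsilonTry and -4.07 for Jon25Bi, but -7.73 for CG7542 and -7.39 for CG6409. Within the depth range of cluster 6, which left 20 apEC cells, that of Jon25Bi was -4.45. Over all 43 apEC cells, Jon25Bi averaged 0.367 in cluster 6 and 69.5 in apEC, whereas Jon25Biii averaged 9.06 in cluster 6 and 65.7 in apEC. Of 26 listed peptidases measured against apEC, 25 were at least 2-fold lower in cluster 6, with a median of -4.30, beside 23.4% of all genes at a mean of at least 0.1.

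Against mEC, 799 of 1946 genes (41.1%) were at least 2-fold higher in cluster 6 and 420 (21.6%) at least 2-fold lower. The progenitor genes E(spl)malpha-BFM, hdc, N and E(spl)mbeta-HLH led the higher side together with the chromatin gene Df31, at log2 differences of 4.55 to 4.11. CG8661 was at the bottom with 0.255 in cluster 6 and 618 in mEC, a log2 difference of -10.77, and CG6277, CG18404, CG15423 and CG5767 followed. For the listed peptidases the picture was mixed: 15 of 22 were at least 2-fold higher in cluster 6 than in mEC and 5 lower, beside 30.9% and 15.9% of all genes at the same filter. The peptidases higher in cluster 6 included Jon25Biii, at 1.36 in mEC, and CG11911, at 0.373 in mEC, while Jon65Aiii averaged 61.2 in mEC and 1.94 in cluster 6. The doublet neighbour share and depth of mEC, given above, also differed from those of cluster 6, and their part was not tested.

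Of the markers of other cell types, fkh, nrv3 and crq averaged above 0.5 per 10000 in cluster 6, and the others were lower. Of 19 enteroendocrine markers, 10 had a UMI in cluster 6, at a summed level of 0 to 13.6 per 10000 per cell with a mean of 1.54, against 1.6 in other EC-like cells; the hormone genes AstC, AstA, Tk, Dh31, Orcokinin and Mip had 0 UMIs, and pros, the enteroendocrine factor, had 1 UMI. The highest gene of that list was nrv3, an ATPase subunit, at 0.621 in cluster 6 and 0.781 in other EC-like cells. Of 15 visceral muscle markers 6 had a UMI, with a mean of 0.558 in cluster 6 and 0.643 in other EC-like cells, and Mhc, Mlc1, up and wupA were at 0. Of 6 hemocyte markers 3 had a UMI, nearly all in crq, a scavenger receptor, at 0.569 in cluster 6 and 0.491 in other EC-like cells, while NimC1, Pxn and eater were at 0. The tracheal, fat body and Malpighian tubule lists averaged 0.0458, 0.0244 and 0.0193 in cluster 6, with trh, Fbp1 and Uro at 0. The neuron and glia list averaged 0.230 in cluster 6 and 0.304 in other EC-like cells, of which elav made up 0.225 and 0.296, with repo at 0 in cluster 6. The hindgut list averaged 4.81 in cluster 6 and 6.45 in other EC-like cells through fkh, which averaged 4.71 and 6.38; byn, the defining factor of the hindgut, was at 0 in both.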

How the data were processed

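Per the labels, midgut cells of 1-day and 3-day old females were prepared with 10x Genomics v3.1 chemistry; per the submitters' processing notes, Cell Ranger 6.0.1 and build BDGP6 were used. The deposited expression values are on a natural log scale, ln(1 + count), where the count is whole and depth-corrected; the counts summed to the deposited depth-corrected total of each cell; per the file headers they come from Seurat with SCTransform. The authors also deposited counts of spliced, unspliced and ambiguous UMIs per cell, percent columns for mitochondrial and ribosomal genes, fraction columns for doublet neighbour shares and label transfer, and score columns with map positions and depth-corrected totals. Classes and clusters are the authors'. All deposited cells of day 1 were called singlets, and no other doublet caller was run.

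UMI counts were rebuilt for the 2092 cells at or under the median depth (28085.5 UMIs), by inverting the correction with 3 unknowns per gene. The rebuilt totals were 0.992 to 1.04 times the deposited ones, and 0.0583% of gene and cell pairs departed from the rule. Levels are mean depth-corrected counts per 10000; log2 differences add 0.1 to both means. Genes entered at a mean of at least 0.5 in 1 group with a value above 0 in 10% of its cells, listed genes at a mean of at least 0.1 in 1 group. A gene was called past 2-fold. Named genes were the 12 largest in each direction against other EC-like cells and the 5 largest against each other class, besides markers and listed genes. Shares carry exact Clopper-Pearson and sums exact Poisson 95% intervals, and ratios of UMI sums exact binomial ones; a share of 0 carries the limit of 3 counts of its total; all cover counting error only. The members and the 38 gene lists were chosen with earlier results of these data known. The steps were tested on simulated data. No test across samples was possible with 1 library per age. Gene positions come from the Ensembl annotation of BDGP6. Python 3.11.15, NumPy 2.4.6, pandas 2.3.3, SciPy 1.17.1 and numba 0.67.0 were used.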

Additional observations from a re-analysis of the deposited data

How the results depend on the processing

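No paired analysis was possible because each age had 1 library and no result comes from a test. With 1 instead of 0.1 per 10000 added to the means, the counts of genes at least 2-fold higher and lower in cluster 6 were 13 and 0 against other EC-like cells, 16 and 0 against ISC2, 20 and 8 against EB1, 230 and 334 against apEC, and 297 and 220 against mEC; the larger addition shrinks differences of low genes by its construction. With no filter on means they were 52 and 4, 70 and 12, 118 and 79, 1053 and 1144, and 1387 and 715 in the same order. The count lower than other EC-like cells was 0 with rebuilt UMI counts and 0 without the 8 cells far from the cluster on the map, an alternative chosen after seeing the data, under which 26 genes were higher. The count above mEC was 505 within the depth range of cluster 6, which left 8 mEC cells. The median log2 difference of the serine peptidases, 1.33, was 0.52 with 1 added, and 1.25 without the 8 cells. At their own depth, esg was detected in 98.7% and N in 96.0% of cluster 6 cells. Among day 1 cells up to the median depth, cluster 6 made up 5.08%. Of the 12 genes named as higher than in other EC-like cells, 10 were past 2-fold without the highest cell of each group. Of 94 gene differences and list medians, 48 moved by over 1.5 times with 1 added, 16 with rebuilt counts and 11 within the depth range, and 7 of 64 without the highest cells; none that was past 2-fold changed sign under these settings. The depth allowed rebuilt counts for 75 of the 81 cells and for only 21 apEC and 8 mEC cells, so shares in the enterocyte classes are imprecise.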
